A study of Mus musculus with 26 samples.

Results

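Formative and primed epiblast genes mark the cells that leave naive pluripotency. Here 7 such genes, Fgf5, Otx2, Pou3f1, Lef1, Tcf15, Sema6a and Vrtn, out of 55471 genes in the count table, were followed through retinoic acid differentiation of mouse embryonic stem cells (ESC). They were chosen from earlier results of the same libraries, in which Vrtn, Sema6a, Lef1, Fgf5 and Pou3f1 stood lower in one knockout genotype than in wild type at day 0, or formative genes fell from day 0, and were found in the table by their GENCODE M21 symbols. Every value that rests on day 0 libraries, of these genes and of the gene lists beside them, is therefore a description with no test or threshold, and tests were kept to the libraries of days 2 and 4. All 7 genes passed the filter on low counts.

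RNA was sequenced from 26 libraries of KH2 cells, a mouse ESC line. AlphaKO cells carry the label of a knockout of the alpha form of NAP1L1, a histone chaperone, and fullKO cells that of a NAP1L1 knockout, and wild-type (WT) KH2 cells were the reference. Cells of each genotype were harvested at days 0, 2 and 4 of retinoic acid, in 3 libraries each, or 2 for fullKO before retinoic acid. The series speaks of knockout lines, and all libraries of 1 knockout genotype carry 1 name prefix, so that each may be 1 line, and line and genotype cannot be told apart. Nor can time in culture and time in retinoic acid, since WT was sampled only with it. The labels do not say that replicates were separate cultures, so that the p-values may reflect technical spread alone.

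Naive ESC resemble the epiblast of the mouse embryo before implantation. On leaving that state they pass through a formative phase, in which Otx2 and Pou3f1 (also called Oct6) act at enhancers of the later epiblast while the naive factors fade, and then become primed, when they respond to signals that set their lineage. Fgf5 is the classic marker of the epiblast after implantation, and retinoic acid drives ESC onward to neural and other fates.

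Promoter sequence was at hand for 4 of the 7 genes, in 12 stretches, and 1 is shown for each gene, the most upstream one that overlaps no annotated exon of M21, because all 4 genes stood lower at day 0 in both knockout genotypes and then took different courses. Each is the 250 bases before a RefSeq start on GRCm38.p6, written 5′ to 3′ on the strand of the gene. The Fgf5 stretch lies at chr5:98253934-98254183 (plus strand), that of Lef1 at chr3:131112541-131112790 (plus strand), that of Vrtn at chr12:84640769-84641018 (plus strand) and that of Otx2 at chr14:48667645-48667894 (minus strand). For Fgf5 and Vrtn this RefSeq start is also the start of the M21 gene. The stretches of Lef1 and Otx2 lie inside the M21 genes, past their starts. Those of Lef1 that lie further upstream overlap an annotated exon and are not shown. Capitals mark E-boxes (CANNTG), the letters that bHLH factors such as Tcf15 bind.
Fgf5: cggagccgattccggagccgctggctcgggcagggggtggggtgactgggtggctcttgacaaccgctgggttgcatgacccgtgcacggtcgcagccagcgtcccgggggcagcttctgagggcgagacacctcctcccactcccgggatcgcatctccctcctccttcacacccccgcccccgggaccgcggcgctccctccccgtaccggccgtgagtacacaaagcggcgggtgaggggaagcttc
Lef1: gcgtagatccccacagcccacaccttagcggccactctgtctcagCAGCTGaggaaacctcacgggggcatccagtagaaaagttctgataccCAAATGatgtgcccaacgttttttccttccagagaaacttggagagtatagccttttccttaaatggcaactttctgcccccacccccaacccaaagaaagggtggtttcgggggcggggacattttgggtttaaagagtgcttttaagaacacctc
Vrtn: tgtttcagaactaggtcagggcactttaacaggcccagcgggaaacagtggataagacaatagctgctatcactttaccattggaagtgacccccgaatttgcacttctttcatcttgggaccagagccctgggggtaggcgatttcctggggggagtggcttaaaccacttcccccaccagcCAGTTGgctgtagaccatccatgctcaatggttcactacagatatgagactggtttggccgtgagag
Otx2: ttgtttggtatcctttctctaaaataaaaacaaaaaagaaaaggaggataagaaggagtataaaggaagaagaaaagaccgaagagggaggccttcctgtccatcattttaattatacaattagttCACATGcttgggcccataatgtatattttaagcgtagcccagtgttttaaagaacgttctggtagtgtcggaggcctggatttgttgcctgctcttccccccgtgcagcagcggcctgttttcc
All 12 stretches were searched on both strands for 4 motifs: the OTX core TAATCC, the LEF/TCF core CTTTGA, the octamer part ATGCAAA and the E-box. Of the stretches shown, that of Lef1 held 2 E-boxes, those of Vrtn and Otx2 held 1 each, and that of Fgf5 held none of the 4 motifs. Over all 12, some of which overlap, 9 held an E-box, 1 stretch of Otx2 held the OTX core, 1 stretch of Lef1 held the LEF/TCF core and 0 held the octamer part. Among 32851 RefSeq stretches of the same length, 6.25% held the OTX core, 13.8% the LEF/TCF core, 4.12% the octamer part and 66.2% an E-box. A match is a description of the letters and not a bound site.

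Library depth lay between 13537267 and 20569706 counts, and no pair of libraries was identical. Nap1l1, the targeted gene, stood lower in knockout libraries than in WT libraries on every day, at 569 to 621 CPM in alphaKO, 397 to 401 in fullKO and 997 to 1068 in WT at day 0 (CPM, counts scaled to library size). ESC markers (Pou5f1, Sox2, Nanog, Sall4, Zfp42 and Lin28a) were all above 1 CPM in every group and summed to 2797 to 2863 CPM in alphaKO, 3196 to 3206 in fullKO and 2661 to 2769.9 in WT at day 0. At day 4 the same sum was 416 to 419 in alphaKO, 656 to 695 in fullKO and 217 to 227 in WT. In bulk RNA, fewer cells of a type and less RNA per cell cannot be told apart.

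The 7 genes took 4 courses. Otx2, Pou3f1 and Fgf5 stood lower at day 0 in both knockout genotypes and were higher than WT later: Otx2 on both later days, Pou3f1 on both in alphaKO but at day 2 alone in fullKO, and Fgf5 at day 4. Tcf15 was higher on both later days, without a low start in alphaKO. Lef1 and Sema6a stood below WT on all 3 days. Vrtn stood 20.2-fold lower at day 0 in alphaKO and 9.36-fold lower in fullKO, and was close to 0 everywhere by day 4.

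**Figure D1:**
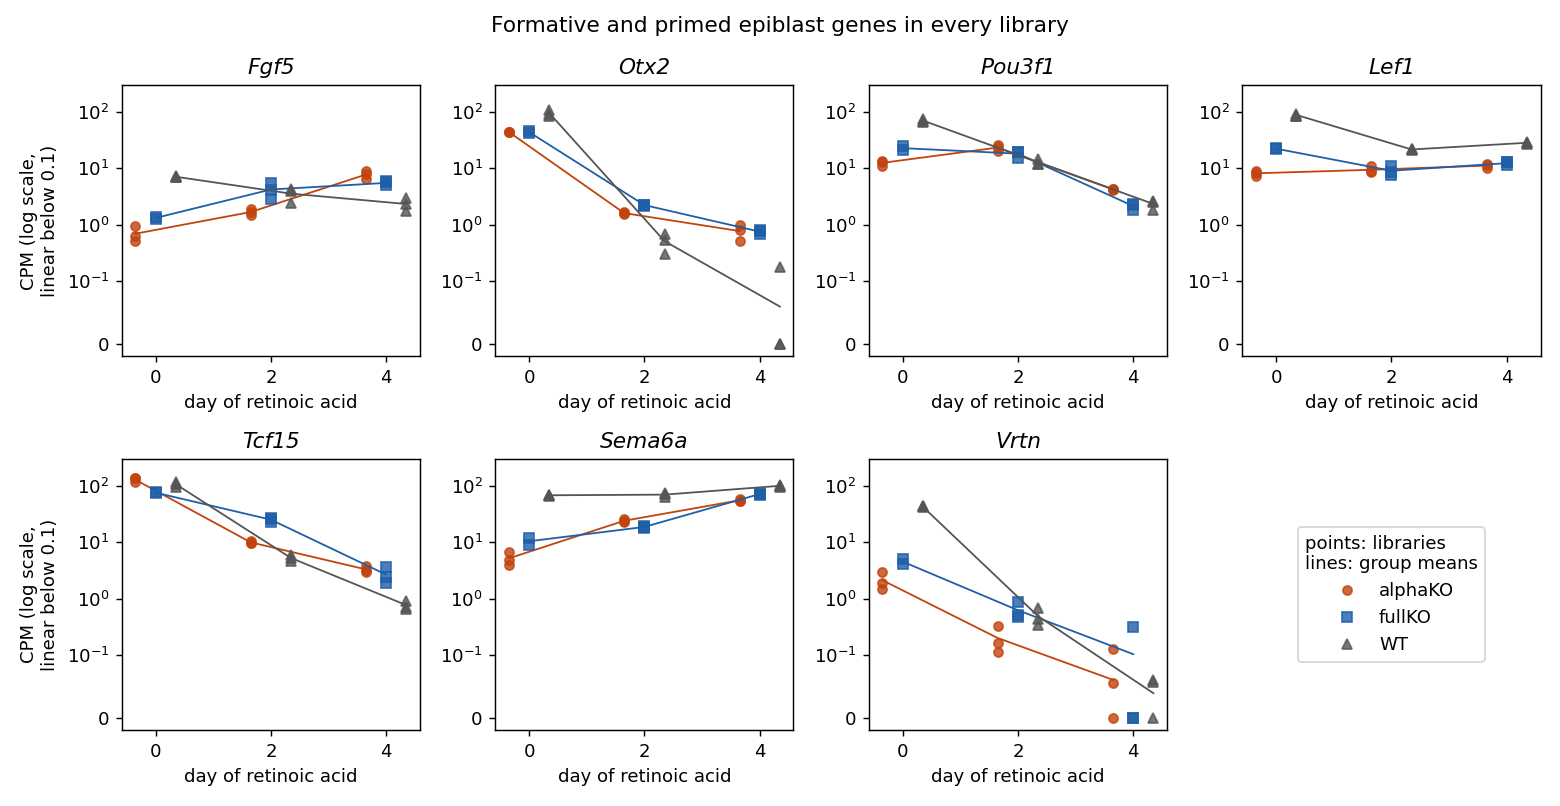
Level of each gene in each library (CPM, log scale, linear below 0.1) by day of retinoic acid; points are libraries, offset by genotype, and lines join group means. WT libraries lie above both knockout genotypes at day 0 in 6 of the panels, all but Tcf15, where alphaKO and WT overlap.

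Per kilobase of exon, a scale on which genes can be compared, the WT level at day 0 was highest for Tcf15, at 108 CPM per kb, followed by Otx2 at 22.6, Pou3f1 at 18.3, Vrtn at 11.8, Lef1 at 10.1, Sema6a at 7.68 and Fgf5 at 2.84 CPM per kb. In alphaKO the order of levels was Tcf15 at 130.1, Otx2 at 10.4, Pou3f1 at 3.24 and the other 4 below 1 CPM per kb. Tcf15 and Otx2 thus led in both, and Fgf5 was the lowest in both. WT cells before retinoic acid already held all 7 transcripts.

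Beside these levels, the log2 fold change against WT had a median over the 7 genes of -3.35 in alphaKO and -1.99 in fullKO at day 0, against -0.03 and -0.01 over all 18412 genes tested. At day 2, 3 of 7 genes were higher in alphaKO (Otx2, Pou3f1 and Tcf15; 19.9% of all genes tested were) and 3 were lower (Fgf5, Lef1 and Sema6a; 20.3% of all genes), by edgeR's quasi-likelihood test with a Benjamini-Hochberg adjusted p under 0.05. In fullKO the same 3 were higher at day 2 (23.8% of all genes) and 2 were lower, Lef1 and Sema6a (23.8% of all genes). At day 4, 4 of 7 were higher in alphaKO (Fgf5, Otx2, Pou3f1 and Tcf15; 28.7% of all genes) and 2 were lower, Lef1 and Sema6a (24% of all genes). In fullKO 3 were higher at day 4 (Fgf5, Otx2 and Tcf15; 25.1% of all genes) and the same 2 lower (24.5% of all genes). Both knockout genotypes were set against the same WT libraries, so that their differences from WT are not independent of each other. The median over the 7 genes was -1.07 in alphaKO and 0.35 in fullKO at day 2, and 0.88 in alphaKO and 1.22 in fullKO at day 4, against medians over all genes of 0.01, 0.02, 0.06 and 0.02 in the same order.

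**Figure D2:**
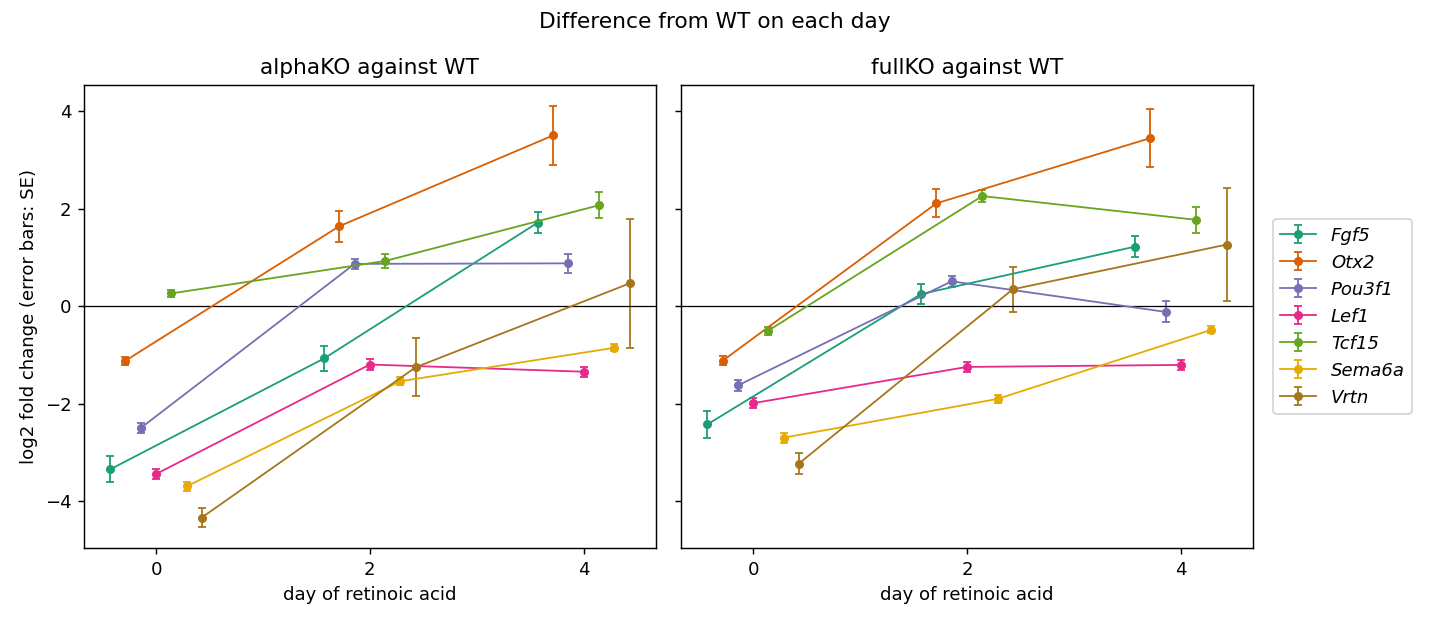
Fitted log2 fold change against WT (y axis; bars are SE) on each day of retinoic acid for alphaKO (left) and fullKO (right), one line per gene. At day 0 every point lies below 0 except Tcf15 in alphaKO, and at days 2 and 4 Otx2 and Tcf15 lie above 0 while Lef1 and Sema6a lie below it in both panels; the Vrtn points at day 4 rest on 2 to 6 counts per group.

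Fgf5 (ENSMUSG00000029337.2, chromosome 5, 98254184 to 98277030, plus strand) encodes a secreted fibroblast growth factor. At day 0 its level was 0.523, 0.940 and 0.620 CPM in alphaKO, 1.25 and 1.39 CPM in fullKO and 7.01, 6.89 and 7.39 CPM in WT. At day 2 it was 1.48, 1.89 and 1.67 CPM in alphaKO, 5.57, 4.17 and 2.90 CPM in fullKO and 2.42, 4.26 and 3.997 CPM in WT. At day 4 it was 6.55, 7.84 and 8.94 CPM in alphaKO, 5.85, 5.68 and 5.02 CPM in fullKO and 1.74, 2.32 and 2.93 CPM in WT. The order of the genotypes thus turned round: all knockout libraries lay below all WT libraries at day 0 and above all of them at day 4. Day 2 stood between, with alphaKO still below WT (log2 fold change -1.07 ± 0.25, adjusted p = 0.000409) and fullKO overlapping WT (0.25 ± 0.21, adjusted p = 0.355). At day 4 the log2 fold change against WT was 1.72 ± 0.22 in alphaKO (adjusted p = 3.98e-09) and 1.22 ± 0.22 in fullKO (adjusted p = 8.96e-06).

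The level of Fgf5 rose between days 2 and 4 in alphaKO by 2.20 ± 0.22 on the log2 scale (adjusted p = 9.99e-12) and changed by -0.59 ± 0.24 in WT (adjusted p = 0.0323). In fullKO the change of 0.39 ± 0.20 did not pass (adjusted p = 0.093), but did without fullKO replicate 1 of day 2 (adjusted p = 0.0109). The WT call was lost without WT replicate 1 or 2 of day 4 (adjusted p = 0.153 and 0.072), without WT replicate 2 or 3 of day 2 (0.161 and 0.121), and with no filter on low counts (0.0534). The change itself differed from that of WT by 2.79 ± 0.33 in alphaKO (adjusted p = 3.69e-09) and by 0.97 ± 0.31 in fullKO (adjusted p = 0.0173). The fullKO difference did not pass without fullKO replicate 3 of day 2 (adjusted p = 0.0668), WT replicate 1 of day 4 (0.0644), or WT replicate 2 or 3 of day 2 (0.0699 and 0.0551).

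Otx2 (ENSMUSG00000021848.16, chromosome 14, 48657677 to 48673819, minus strand) encodes a homeodomain transcription factor of the formative epiblast and later of the forebrain. Its levels at day 0 were 43.4, 44.1 and 44.4 CPM in alphaKO, 45.3 and 42.5 CPM in fullKO and 109, 91.8 and 85.8 CPM in WT. By day 2 they were 1.54, 1.67 and 1.62 CPM in alphaKO, 2.28, 2.16 and 2.26 CPM in fullKO and 0.310, 0.542 and 0.687 CPM in WT. By day 4 they were 0.819, 0.986 and 0.514 CPM in alphaKO, 0.812, 0.775 and 0.677 CPM in fullKO and 0, 0.179 and 0 CPM in WT. Otx2 was thus nearly lost from all genotypes within 2 days, but it began below WT in knockout cells and ended above it, with no overlap of libraries on any day. Its log2 fold change against WT at day 2 was 1.64 ± 0.31 in alphaKO (adjusted p = 3.11e-05) and 2.11 ± 0.29 in fullKO (adjusted p = 3.54e-08).

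The day 4 difference in Otx2 passed in alphaKO (adjusted p = 2.9e-06) and in fullKO (adjusted p = 4.23e-06), on 39, 41 and 3 counts summed over the libraries of alphaKO, fullKO and WT. Scaled for depth, these counts gave a ratio to WT of 12.6 (95% interval 3.99 to 63.5) in alphaKO and 12.1 (95% interval 3.85 to 60.9) in fullKO; the intervals are exact and cover counting error alone. All the WT counts were in WT replicate 2. Between days 2 and 4 Otx2 fell by 1.03 ± 0.28 on the log2 scale in alphaKO (adjusted p = 0.00147) and by 1.56 ± 0.25 in fullKO (adjusted p = 7.56e-07), and it fell in WT too, to 3 counts at day 4 against 24 at day 2 (adjusted p = 0.000261). Whether these falls differed from WT was not settled by the test: the difference missed the threshold in alphaKO (adjusted p = 0.0663) and fullKO (adjusted p = 0.228), and passed without WT replicate 2 of day 4 (0.00468 in alphaKO and 0.0187 in fullKO). It also passed in alphaKO without alphaKO replicate 3 of day 4 (0.0418) or WT replicate 1 of day 2 (0.0367). Otx2 overlaps the noncoding gene Otx2os1 on the opposite strand and Gm49154 on the same strand, and how reads of the overlaps were counted is not given in the sources used here.

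Pou3f1 (ENSMUSG00000090125.3, chromosome 4, 124656807 to 124660655, plus strand) encodes a POU-domain transcription factor that binds octamer motifs and promotes neural fate. In alphaKO its level was 13.1, 13.2 and 11.2 CPM at day 0, 25.8, 20.2 and 23.9 CPM at day 2 and 4.28, 4.33 and 4.18 CPM at day 4. In fullKO it was 24.5 and 21.1 CPM at day 0, 19.7, 19.5 and 15.4 CPM at day 2 and 2.32, 1.86 and 2.26 CPM at day 4. In WT it was 70.3, 74.3 and 66.7 CPM at day 0, 14.4, 11.8 and 12.1 CPM at day 2 and 2.61, 2.56 and 1.84 CPM at day 4. The 3 courses had different shapes: alphaKO libraries were higher at day 2 than at day 0, fullKO libraries were slightly lower, and WT libraries lost most of the transcript. At day 2 both knockout genotypes were above WT, with log2 fold changes of 0.87 ± 0.11 in alphaKO (adjusted p = 5.8e-09) and 0.51 ± 0.11 in fullKO (adjusted p = 0.000127). At day 4 alphaKO stayed above WT (0.88 ± 0.19, adjusted p = 0.000106), while fullKO libraries overlapped WT (-0.12 ± 0.21, adjusted p = 0.687).

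From day 2 to day 4 Pou3f1 fell in all genotypes, by 2.45 ± 0.13 on the log2 scale in alphaKO (adjusted p = 3.92e-21), 3.09 ± 0.15 in fullKO (adjusted p = 9.21e-23) and 2.46 ± 0.16 in WT (adjusted p = 4.47e-18). The fall in alphaKO differed from that in WT by 0.01 ± 0.19 (adjusted p = 0.98). In fullKO the difference was -0.63 ± 0.24 and missed the threshold (adjusted p = 0.053), but it passed with DESeq2 (adjusted p = 0.0368), with genes of at least 1 CPM (0.0488), and without fullKO replicate 3 of day 2 (0.0192), WT replicate 1 of day 2 (0.0285) or WT replicate 3 of day 4 (0.0246). Pou3f1 overlaps the antisense gene Gm2164, and reads of the overlap may have been shared.

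Lef1 (ENSMUSG00000027985.14, chromosome 3, 131110471 to 131224356, plus strand) encodes an HMG-box factor that works with beta-catenin as an effector of Wnt signalling. Its day 0 levels were 8.37, 8.93 and 7.18 CPM in alphaKO, 21.95 and 22.7 CPM in fullKO and 86.1, 93.2 and 86.00 CPM in WT. Its day 2 levels were 10.9, 8.46 and 8.90 CPM in alphaKO, 8.66, 10.9 and 7.63 CPM in fullKO and 21.2, 21.9 and 21.5 CPM in WT. Its day 4 levels were 11.97, 11.3 and 10.3 CPM in alphaKO, 12.7, 11.6 and 12.7 CPM in fullKO and 27.3, 28.3 and 29.4 CPM in WT. AlphaKO cells thus held a low, almost flat level near 10 CPM while WT moved, and WT libraries stayed above all knockout libraries on each day. The log2 fold change against WT at day 2 was -1.20 ± 0.10 in alphaKO (adjusted p = 2.65e-13) and -1.25 ± 0.10 in fullKO (adjusted p = 3.42e-14). At day 4 it was -1.34 ± 0.10 in alphaKO (adjusted p = 7.56e-16) and -1.20 ± 0.10 in fullKO (adjusted p = 1.41e-14).

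After its drop to day 2, Lef1 rose again by day 4 in WT (0.40 ± 0.09, adjusted p = 0.000218) and in fullKO (0.44 ± 0.11, adjusted p = 0.00051). The change in alphaKO was 0.25 ± 0.11 and missed the threshold (adjusted p = 0.052), but passed with genes of at least 1 CPM (0.0463) and without alphaKO replicate 1 of day 2 (0.0102) or replicate 3 of day 4 (0.034). The change differed from that of WT by -0.15 ± 0.14 in alphaKO (adjusted p = 0.502) and 0.04 ± 0.14 in fullKO (adjusted p = 0.884). Lef1 overlaps Gm42449 on its own strand and the antisense gene Gm43352.

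Tcf15 (ENSMUSG00000068079.5, chromosome 2, 152143561 to 152149097, plus strand) encodes a bHLH factor that primes ESC for differentiation and later acts in somites. Before retinoic acid it stood at 134, 134 and 114 CPM in alphaKO, 76.4 and 73.8 CPM in fullKO and 107, 116 and 96.1 CPM in WT. At day 2 the levels were 9.64, 9.81 and 10.2 CPM in alphaKO, 26.3, 25.8 and 22.7 CPM in fullKO and 5.20, 5.82 and 4.62 CPM in WT. At day 4 the levels were 3.72, 2.96 and 3.15 CPM in alphaKO, 1.91, 2.43 and 3.61 CPM in fullKO and 0.653, 0.715 and 0.919 CPM in WT. Among the 7 genes Tcf15 was the only one whose alphaKO libraries overlapped WT at day 0, and on both later days every knockout library was above every WT library. FullKO went against its start: it had the lowest level at day 0 and the highest at day 2. The log2 fold change against WT at day 2 was 0.93 ± 0.13 in alphaKO (adjusted p = 1.91e-07) and 2.26 ± 0.12 in fullKO (adjusted p = 5.23e-21), and at day 4 it was 2.07 ± 0.26 in alphaKO (adjusted p = 4.04e-09) and 1.77 ± 0.27 in fullKO (adjusted p = 3.28e-07).

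All genotypes lost more Tcf15 between days 2 and 4. It fell by 1.60 ± 0.15 on the log2 scale in alphaKO (adjusted p = 5.22e-13), 3.23 ± 0.13 in fullKO (adjusted p = 2.13e-25) and 2.74 ± 0.24 in WT (adjusted p = 8.55e-14). The fall was smaller in alphaKO than in WT, by 1.14 ± 0.31 (adjusted p = 0.00351), and in fullKO it differed from WT by -0.49 ± 0.34 (adjusted p = 0.329).

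Sema6a (ENSMUSG00000019647.16, chromosome 18, 47235598 to 47368870, minus strand) encodes a transmembrane semaphorin, a guidance molecule that signals through plexins of the A class. In alphaKO it stood at 4.77, 3.93 and 6.72 CPM at day 0, 25.4, 22.3 and 23.9 CPM at day 2 and 57.02, 54.03 and 53.8 CPM at day 4. In fullKO it stood at 11.96 and 8.72 CPM at day 0, 17.7, 18.5 and 19.4 CPM at day 2 and 72.4, 69.3 and 71.4 CPM at day 4. In WT it stood at 67.7, 66.4 and 68.2 CPM at day 0, 71.03, 64.1 and 72.5 CPM at day 2 and 99.7, 96.4 and 102 CPM at day 4. The WT means of days 2 and 4 were not below that of day 0, unlike those of the other 6 genes, and knockout cells came closer to WT from a start 12.97-fold below it in alphaKO and 6.48-fold below it in fullKO. Every knockout library still lay below every WT library on each day. At day 2 the log2 fold change was -1.54 ± 0.08 in alphaKO (adjusted p = 4.33e-21) and -1.90 ± 0.08 in fullKO (adjusted p = 2.5e-24), and at day 4 it was -0.85 ± 0.07 in alphaKO (adjusted p = 1.97e-14) and -0.48 ± 0.07 in fullKO (adjusted p = 5.7e-08).

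Between days 2 and 4 Sema6a rose by 1.20 ± 0.08 on the log2 scale in alphaKO (adjusted p = 7.55e-18), 1.94 ± 0.08 in fullKO (adjusted p = 3.32e-25) and 0.52 ± 0.07 in WT (adjusted p = 9.28e-09). The rise was larger than in WT by 0.69 ± 0.10 in alphaKO (adjusted p = 9.85e-07) and by 1.42 ± 0.10 in fullKO (adjusted p = 1.48e-14).

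Vrtn (ENSMUSG00000071235.12, chromosome 12, 84641019 to 84651455, plus strand) encodes vertnin, which is known in pigs for its link to vertebral number. Its level was 2.96, 1.88 and 1.499 CPM in alphaKO, 4.998 and 4.03 CPM in fullKO and 41.4, 43.2 and 42.8 CPM in WT at day 0. At day 2 it was 0.114, 0.162 and 0.324 CPM in alphaKO, 0.507, 0.883 and 0.474 CPM in fullKO and 0.433, 0.338 and 0.687 CPM in WT. At day 4 it was 0.126, 0.0548 and 0 CPM in alphaKO, 0, 0.310 and 0 CPM in fullKO and 0, 0.0595 and 0.0574 CPM in WT. By day 2 every library was below 1 CPM, with alphaKO libraries all below WT libraries and fullKO libraries overlapping them. Counts summed over the libraries were 11 in alphaKO, 37 in fullKO and 23 in WT at day 2, and the log2 fold change against WT was -1.25 ± 0.59 in alphaKO (adjusted p = 0.0902) and 0.35 ± 0.46 in fullKO (adjusted p = 0.564). The alphaKO difference at day 2 passed with DESeq2 alone (adjusted p = 0.0478).

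By day 4 Vrtn was down to 3 counts in alphaKO, 6 in fullKO and 2 in WT, so that no fold is given for alphaKO and the ratio of fullKO to WT was 2.65 (95% interval 0.474 to 26.8). All 6 fullKO counts were in fullKO replicate 2, a spread between libraries that the interval does not cover. A difference at this level was not detectable at this depth. The fall from day 2 to day 4 passed in fullKO (adjusted p = 0.000699) and WT (adjusted p = 0.000808) and did not in alphaKO (adjusted p = 0.137).

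Levels can also be set against the day 0 mean of the same genotype. The day 0 level took part in the choice of the genes and is the number divided by here, so that a low knockout start by itself raises the knockout share, and the shares are given as values from which no slower or smaller fall is read. At day 2 the share kept for Pou3f1 was 187% ± 22.97 in alphaKO, 79.8% ± 10.7 in fullKO and 18.1% ± 1.99 in WT (SD over 3 libraries, day 0 mean held fixed). For Otx2 it was 3.66% ± 0.149 in alphaKO, 5.09% ± 0.150 in fullKO and 0.538% ± 0.200 in WT. For Tcf15 it was 7.77% ± 0.246 in alphaKO, 33.2% ± 2.54 in fullKO and 4.91% ± 0.565 in WT. Pou3f1 in alphaKO stood above its own day 0 level, and the other shares were below 100%. The day 0 level these shares are divided by was 5.65-fold below WT for Pou3f1 and 2.17-fold below WT for Otx2 in alphaKO, and 3.08-fold and 2.17-fold below WT in fullKO.

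The shares of Lef1 and Vrtn were also larger in knockout cells, while their levels were not. Lef1 kept 115% ± 15.9 of its day 0 level at day 2 in alphaKO, 40.6% ± 7.47 in fullKO and 24.4% ± 0.427 in WT. Vrtn kept 9.45% ± 5.20 in alphaKO, 13.8% ± 5.04 in fullKO and 1.15% ± 0.425 in WT. For both, the knockout level at day 2 was at or below that of WT or overlapped it, so that a larger share went with no higher level. Sema6a and Fgf5 ended above their day 0 level in knockout cells: at day 4 Sema6a was at 1069% ± 34.9 of its day 0 level in alphaKO, 687% ± 15.5 in fullKO and 147% ± 3.96 in WT, and Fgf5 was at 1120.0% ± 172 in alphaKO, 419% ± 33.5 in fullKO and 32.8% ± 8.38 in WT.

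By day 4 Pou3f1 was at 34.2% ± 0.614 of its day 0 level in alphaKO, 9.41% ± 1.09 in fullKO and 3.32% ± 0.614 in WT. Lef1 was at 137% ± 10.4 in alphaKO, 55.3% ± 2.98 in fullKO and 32.1% ± 1.17 in WT, and Tcf15 at 2.57% ± 0.309 in alphaKO, 3.53% ± 1.16 in fullKO and 0.718% ± 0.131 in WT. Otx2 kept 1.76% in alphaKO, 1.72% in fullKO and 0.0624% in WT. The fitted change from day 0 was more positive than in WT for 7 of 7 genes, in both knockout genotypes and on both later days, with medians of 2.27 in alphaKO and 2.67 in fullKO to day 2, and 3.38 in alphaKO and 2.27 in fullKO to day 4, on the log2 scale. Nothing is read from this direction, for the same reason.

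**Figure D3:**
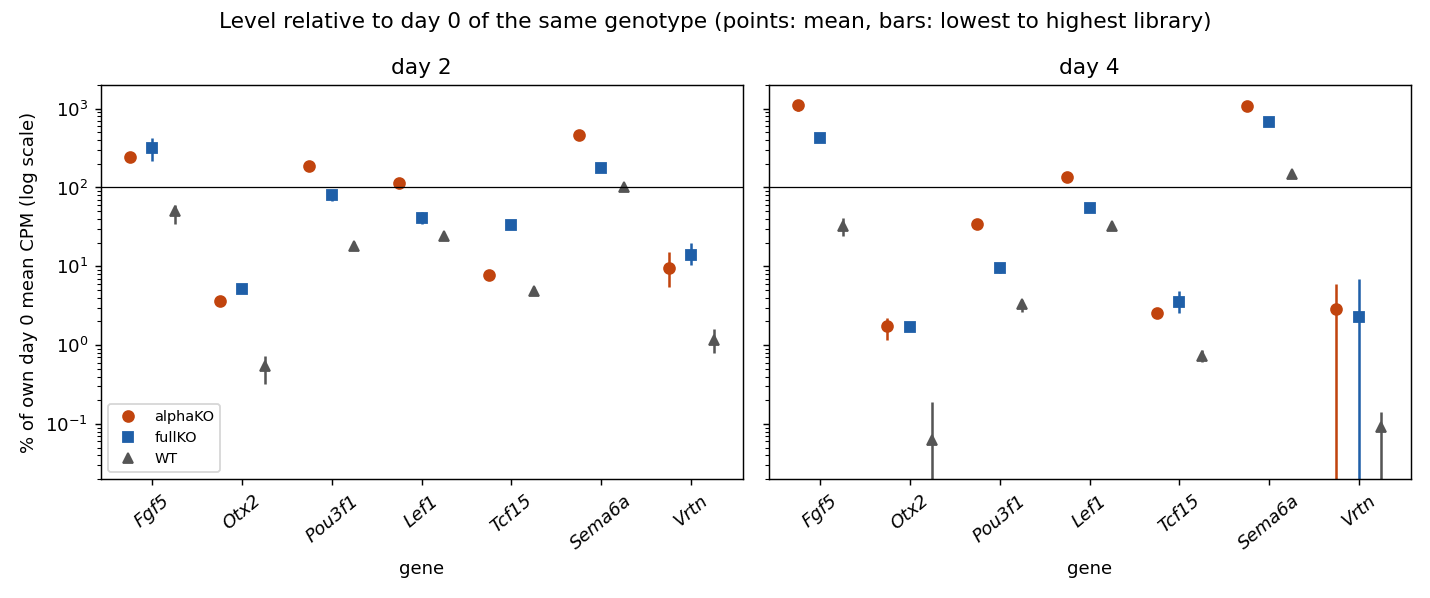
Level at day 2 (left) and day 4 (right) as a percentage of the mean day 0 CPM of the same genotype (log scale); points are means, bars run from the lowest to the highest library, and the line marks 100%. AlphaKO and fullKO points lie above the WT point for all 7 genes on both days; for Otx2 in WT and for Vrtn in all 3 genotypes at day 4 the lowest library is 0 and the bar is drawn to the axis.

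The knockout genotypes differed from each other in 5 of 7 genes at day 2 (25.3% of all genes tested differed). AlphaKO was lower than fullKO in Fgf5 (log2 fold change -1.32 ± 0.23, adjusted p = 1.72e-05), Tcf15 (-1.33 ± 0.10, adjusted p = 1.05e-14) and Vrtn (-1.60 ± 0.54, adjusted p = 0.0225), and higher in Pou3f1 (0.36 ± 0.10, adjusted p = 0.00593) and Sema6a (0.36 ± 0.09, adjusted p = 0.00104). Otx2 at -0.47 ± 0.21 (adjusted p = 0.104) and Lef1 at 0.05 ± 0.11 (adjusted p = 0.811) did not pass. The Vrtn call was lost without fullKO replicate 2 (adjusted p = 0.155) or alphaKO replicate 1 or 2 (0.103 and 0.084), and the Pou3f1 call without fullKO replicate 3 (0.0896) or alphaKO replicate 1 (0.0704).

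At day 4, 3 of 7 genes differed between the knockout genotypes (32.7% of all genes tested did). Pou3f1 was higher in alphaKO (1.0 ± 0.19, adjusted p = 3.36e-05), Sema6a was lower (-0.37 ± 0.07, adjusted p = 4.27e-05), and Fgf5 was higher (0.49 ± 0.19, adjusted p = 0.041). For Sema6a this turned round the day 2 order, with alphaKO libraries all above fullKO libraries at day 2 and all below them at day 4. The Fgf5 call was lost without any 1 of the 3 fullKO libraries, without alphaKO replicate 2 or 3 and with no low-count filter, at adjusted p from 0.0602 to 0.189. Tcf15 at 0.30 ± 0.19 (adjusted p = 0.244) passed only without fullKO replicate 3 (0.0332). At day 0 alphaKO stood below fullKO in Fgf5, Pou3f1, Lef1, Sema6a and Vrtn, by fitted log2 differences from -1.45 for Lef1 to -0.87 for Pou3f1, above it in Tcf15 (0.76), and level with it in Otx2 (0.00).

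Over the last 2 days, 2 of 7 genes rose in alphaKO, Fgf5 and Sema6a (30.1% of all genes tested rose), and 3 fell, Otx2, Pou3f1 and Tcf15 (28.1% of all genes fell). In fullKO Lef1 and Sema6a rose (29.6% of all genes) and 4 fell, Otx2, Pou3f1, Tcf15 and Vrtn (28.9% of all genes). In WT Lef1 and Sema6a rose (30.2% of all genes) and the other 5 fell (29.2% of all genes). The change was more positive than in WT for 3 genes in alphaKO, Fgf5, Tcf15 and Sema6a (15.4% of all genes), and for 2 in fullKO, Fgf5 and Sema6a (13.1% of all genes).

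Another 13 genes of the formative and primed epiblast, a list that the 7 genes are not on, mostly stood below WT at day 0 and were mostly higher later. At day 0, as a description, the fitted value was below WT for 12 of the 13 in alphaKO (53.0% of all genes) and 12 in fullKO (50.6% of all genes), with median log2 fold changes of -1.08 in alphaKO and -1.13 in fullKO against -0.03 and -0.01 over all genes. The lowest values were those of Grhl2, an epithelial transcription factor (-3.28 ± 0.12 in alphaKO and -1.92 ± 0.12 in fullKO), Dnmt3b, a de novo DNA methyltransferase (-2.41 ± 0.05 and -1.66 ± 0.05), and Sox3, a neural and epiblast SOX factor (-2.15 ± 0.17 and -1.94 ± 0.20). Dnmt3b averaged 225 ± 12.6 CPM in alphaKO, 378 ± 22.8 CPM in fullKO and 1195 ± 11.6 CPM in WT at day 0 (SD, 3 libraries each but 2 for fullKO).

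At day 2 the balance had turned: 9 of the 13 were higher and 2 lower in alphaKO (median 0.79). There 19.9% of all genes tested were higher and 20.3% lower. In fullKO 10 were higher and 2 lower (median 1.19), against 23.8% of all genes higher and 23.8% lower. In alphaKO Grhl2 was still lower (-2.03 ± 0.13), as was Fgf15, an FGF of the neural tube and gut (-1.5 ± 0.22), and Zic5 was higher (1.22 ± 0.13). Grhl2 was also lower (-0.88 ± 0.12) and Zic5 also higher (0.80 ± 0.13) in fullKO. In fullKO the largest differences were those of Foxd3, a forkhead factor of the epiblast (2.12 ± 0.23), Utf1, a chromatin factor of pluripotent cells (1.55 ± 0.08), and Etv5, an ETS factor downstream of FGF signals (1.52 ± 0.05).

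At day 4, 11 of the 13 were higher and 1 lower in alphaKO (median 1.07), and 8 higher and 2 lower in fullKO (median 0.80). The medians over all genes were 0.06 and 0.02. Of all genes tested, 28.7% were higher and 24% lower in alphaKO, and 25.1% and 24.5% in fullKO. Fgf15 stood 4.01 ± 0.35 above WT in alphaKO, at 4.12 ± 0.928 CPM in alphaKO and 0.243 ± 0.0853 CPM in WT, having been below WT at days 0 and 2, which is the same turn of order as that of Fgf5. Grhl2 was lower in alphaKO at day 4 too (-2.13 ± 0.15), and Utf1 was higher (1.37 ± 0.19). In fullKO Grhl2 was lower by less (-0.28 ± 0.12). Utf1 (2.23 ± 0.17), Sox3 (2.07 ± 0.20) and Etv5 (1.60 ± 0.06) led in fullKO.

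**Figure D4:**
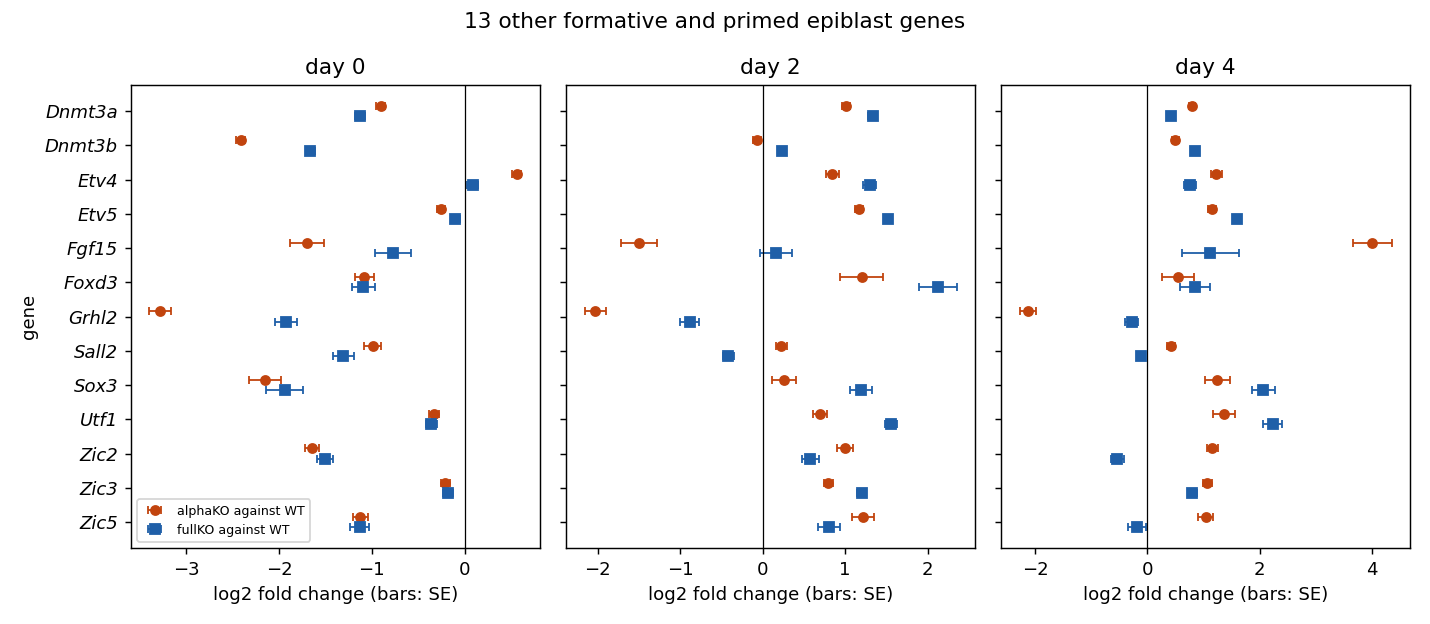
Fitted log2 fold change against WT (x axis; bars are SE) of 13 other formative and primed epiblast genes on days 0, 2 and 4 in alphaKO (circles) and fullKO (squares). Nearly all points lie left of 0 at day 0 and most lie right of it at days 2 and 4. Grhl2 lies left of 0 on all 3 days in both knockout genotypes.

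Close relatives of the 7 genes were split in direction. Of 13 paralogs (such as Otx1, Pou3f2, Tcf7l2 and Sema6d), 2 were higher and 4 lower in alphaKO at day 2 (median 0.03), and 3 and 4 in fullKO (median -0.17). Among all genes tested, 19.9% were higher and 20.3% lower in alphaKO at day 2, and 23.8% and 23.8% in fullKO. At day 4 5 were higher and 3 lower in alphaKO (median 0.28), and 4 and 5 in fullKO (median 0.09). The day 4 shares of all genes were 28.7% higher and 24% lower in alphaKO, and 25.1% and 24.5% in fullKO. Fgf4, an FGF of naive ESC, had the largest difference on both days, at 2.43 ± 0.15 in alphaKO and 3.32 ± 0.14 in fullKO at day 2 and 3.96 ± 0.24 in alphaKO and 4.26 ± 0.23 in fullKO at day 4. Pou3f2, the neural relative of Pou3f1, followed at day 4 with 3.82 ± 0.47 in alphaKO and 2.37 ± 0.52 in fullKO. These differences rest on low levels, 3.08 ± 0.697 CPM in alphaKO, 1.12 ± 0.142 CPM in fullKO and 0.223 ± 0.184 CPM in WT (SD). Tcf7l2, a Wnt effector like Lef1, was higher in alphaKO at day 2 (1.38 ± 0.09) and day 4 (0.97 ± 0.08), opposite to Lef1. The same held in fullKO at day 2 (1.26 ± 0.09) and day 4 (0.55 ± 0.08). Fgf8, an FGF of the primitive streak, was lower in alphaKO at day 2 (-1.67 ± 0.49). In fullKO Sema6d (-1.5 ± 0.32) and Scx (-1.41 ± 0.22), the bHLH relative of Tcf15, were lower at day 2, and Pou3f4, another neural POU factor, was lower at day 4 (-1.38 ± 0.34). Scx was lower at day 2 in alphaKO too (-1.36 ± 0.22).

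Of 14 genes whose products bind those of the 7 (FGF receptors, beta-catenin, A-class plexins, E proteins and Id proteins), 3 were higher and 3 lower in alphaKO at day 2 (median 0.04), and 1 and 10 in fullKO (median -0.28). Among all genes tested, 19.9% were higher and 20.3% lower in alphaKO at day 2, and 23.8% and 23.8% in fullKO. At day 4 9 were higher and 2 lower in alphaKO (median 0.19), and 5 and 6 in fullKO (median -0.09). The day 4 shares of all genes were 28.7% higher and 24% lower in alphaKO, and 25.1% and 24.5% in fullKO. Plxna4, a semaphorin receptor, was lower at day 2, at -0.97 ± 0.35 in alphaKO (adjusted p = 0.0244) and -1.41 ± 0.37 in fullKO (adjusted p = 0.00125). Its relative Plxna1 was lower at day 2 in alphaKO (-0.59 ± 0.06) and fullKO (-0.37 ± 0.06), and at day 4 in fullKO (-0.55 ± 0.06). The day 4 level of Plxna1 in alphaKO was like that in fullKO, at 116 ± 5.50 CPM in alphaKO, 117 ± 2.94 CPM in fullKO and 171 ± 1.86 CPM in WT (SD). Plxna2 was higher in alphaKO at day 2 (1.0 ± 0.07) and day 4 (0.71 ± 0.07). Fgfr4, a receptor for FGFs, was higher at day 4 in alphaKO (1.23 ± 0.22) and fullKO (0.84 ± 0.22), and Fgfr3 in alphaKO (0.59 ± 0.15). In fullKO Fgfr2 was lower at day 2 (-0.37 ± 0.07) and Id3, an inhibitor of bHLH factors, at day 4 (-0.44 ± 0.06).

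Lists of other cell states also differed between the genotypes on some days, and their part in the results was not tested. Of 14 naive pluripotency genes, 11 had fitted values above WT at day 0 in alphaKO (46.4% of all genes) and 13 in fullKO (48.7% of all genes). At day 2 13 were higher in alphaKO and 13 in fullKO, and at day 4 13 and 12 were higher with 1 lower in each. The naive genes summed to 4805 to 4992 CPM in alphaKO, 5180.3 to 5390.3 CPM in fullKO and 2099.8 to 2261 CPM in WT at day 0. At day 2 the sum was 1260.2 to 1293 CPM in alphaKO, 1798 to 1902 CPM in fullKO and 343 to 379.7 CPM in WT. The naive sum stood above WT at day 0, when 6 of the 7 formative genes in alphaKO, all but Tcf15, and 7 of 7 in fullKO had fitted values below WT, and at day 2 Otx2, Pou3f1 and Tcf15 stood above WT together with it. Of 6 ESC markers, which share Nanog and Zfp42 with the naive list, 5 were higher in alphaKO and 6 in fullKO at day 2, and 6 in each at day 4. For both lists, the shares of all genes that were higher at day 2 were 19.9% in alphaKO and 23.8% in fullKO. At day 4 they were 28.7% in alphaKO and 25.1% in fullKO.

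Fibroblast genes (10, collagens and other stromal genes) were detected in every group. All 10 had fitted values below WT in both knockout genotypes at day 0, with sums of 1254 to 1971 CPM in alphaKO, 265 to 402 CPM in fullKO and 2371 to 3121 CPM in WT. At day 2 the sums were 269.5 to 333 CPM in alphaKO, 127 to 134 CPM in fullKO and 648 to 724 CPM in WT, and at day 4 705 to 783 CPM in alphaKO, 565 to 616 CPM in fullKO and 1362 to 1451 CPM in WT. Between the knockout genotypes the order was the reverse of that of Lef1, Sema6a, Vrtn, Fgf5 and Pou3f1 at day 0: the fibroblast sum was lower in fullKO, and these 5 genes were lower in alphaKO. No fibroblast, primitive endoderm, neural, naive or ESC marker was at 0 in all libraries of a group, while 1 of the primitive streak genes was at 0 in both fullKO libraries of day 0.

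Neural progenitor genes (11) summed to 315 to 365 CPM in alphaKO, 263 to 298 CPM in fullKO and 631 to 709.6 CPM in WT at day 4, with 4 higher and 5 lower in alphaKO and 2 higher and 5 lower in fullKO. At day 0 all groups summed to 90.1 to 104 CPM. Primitive endoderm genes (10) summed to 2258 to 2508 CPM in alphaKO, 1635 to 1901 CPM in fullKO and 1371 to 1514 CPM in WT at day 4. Of these 10, 9 were higher in alphaKO and 7 in fullKO, against the same 28.7% and 25.1% of all genes. Primitive streak and mesendoderm genes (12 listed, 10 tested) summed at day 0 to 19.6 to 22.1 CPM in alphaKO, 11.1 to 12.7 CPM in fullKO and 13.6 to 17.6 CPM in WT, at day 2 to 54.1 to 56.1 CPM in alphaKO, 67.8 to 80.8 CPM in fullKO and 55.04 to 59.2 CPM in WT, and at day 4 to 43.5 to 50.4 CPM in alphaKO, 54.2 to 57.3 CPM in fullKO and 64.4 to 67.5 CPM in WT.

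**Figure D5:**
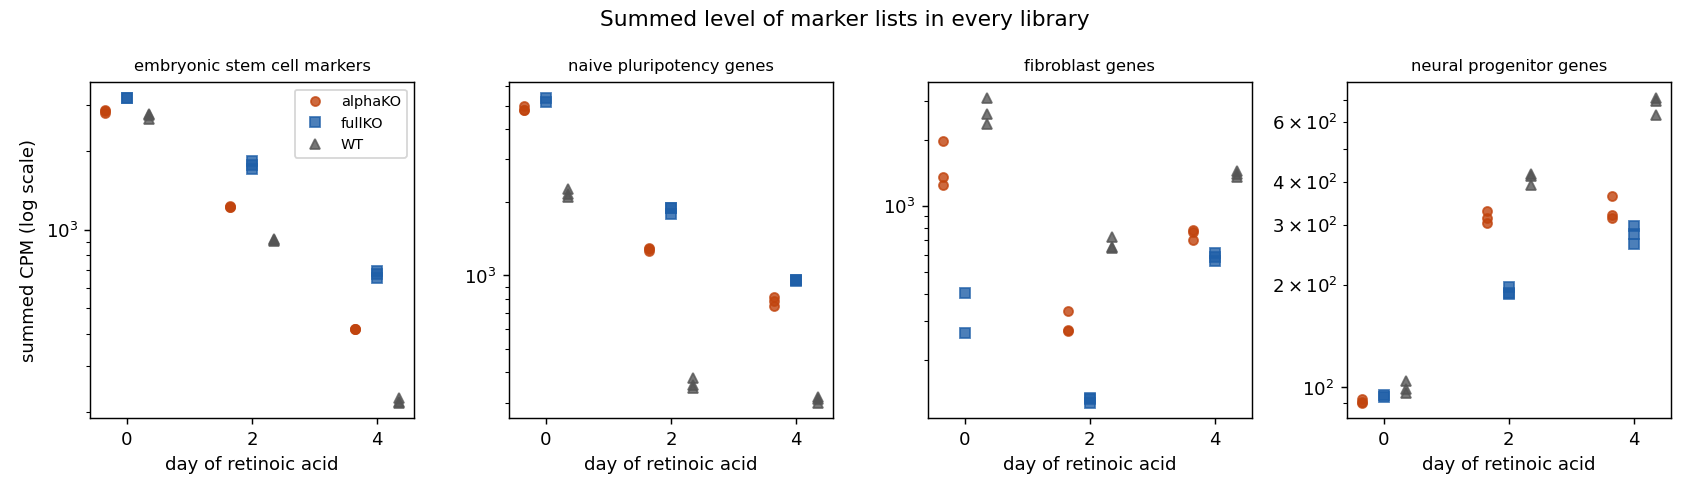
Summed CPM (log scale, a separate range in each panel) of 6 ESC markers, 14 naive pluripotency genes, 10 fibroblast genes and 11 neural progenitor genes by day of retinoic acid; each point is a library. Knockout libraries lie above WT in naive genes and below WT in fibroblast genes on every day, and the fibroblast sum of fullKO lies below that of alphaKO at each day.

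Courses were compared as log2 of the 9 group mean CPM after adding 0.1 CPM, more than the WT day 4 means of Otx2 and Vrtn. Otx2 ran most like Tcf15 (Pearson r 0.96) and Vrtn (0.91), and Fgf5 ran most like Sema6a (0.75). These are descriptions over groups that share libraries and day effects. Outside the 7 genes, the nearest courses were those of Bdp1 (r 0.996), Zfp141 and Ssbp1 for Otx2, of Twistnb (r 0.994), Ccnb1 and Tex21 for Tcf15, and of Tle4 (r 0.996), Snrpn and Zfp770 for Vrtn. Pou3f1 ran most like Sltm (r 0.977), Knop1 and Elavl1, Lef1 like Acsl5 (r 0.941), Plekha3 and Stx3, and Sema6a like Fem1c (r 0.950), Irs4 and Jtb. Fgf5 had no course as near, with Bcor (r 0.878), Spon1 and Tgif2 the closest.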

How the data were processed

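RNA-seq counts per gene of 26 libraries were used as the authors deposited them: whole-number counts for 55471 genes, not normalized. Per the submitters' processing notes the tools were FastQC and STAR 2.7.1a and the build mm10; which tool counted reads, with which strand setting and on which annotation, is not given in the sources used here. RNA was extracted with RNeasy Mini and made into KAPA Stranded mRNA-Seq libraries, per the labels' protocols. Gene symbols came from GENCODE M21, which matched 55230 genes.

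The 7 genes and all gene lists were chosen with earlier results of these data known, so that no list is independent evidence. Counts were fitted with edgeR 4.0.16 in R 4.3.3 (filterByExpr, 18412 genes left; TMM scaling; 1 mean per group over 9 groups; 17 residual degrees of freedom; quasi-likelihood test), with Benjamini-Hochberg adjustment over all 18412 genes and a threshold of 0.05. CPM were computed from the deposited counts and TMM-scaled totals; log2 fold changes are fitted values with SE. Count ratios for genes with few counts have exact 95% intervals, which cover counting error only. No ratio is given where neither group held more than 3 counts. From the lists of other formative genes, paralogs and partners, the 3 genes with the largest difference among those past the threshold were named at days 2 and 4, and the 3 with the largest difference at day 0 for the first of them; cell state lists are given as counts and sums with no gene named, though the rule allowed up to 3. Some of the named genes are also given with values of the other knockout genotype. For each of the 7 genes, the 3 most alike in course were named by Pearson r over 9 group means. Alternatives were DESeq2 1.42.0, other filters and scalings, a replicate block, and leaving out each of the 26 libraries. Same-numbered libraries did not deviate together, and the numbers were not used to pair them. The fits were tested on simulated data.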

Additional observations from a re-analysis of the deposited data

Results flagged for a closer look

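The change from day 2 to day 4 differed from that of WT, by the test of the difference itself (edgeR's quasi-likelihood test, Benjamini-Hochberg adjusted over all genes), in 5 cases. In alphaKO the change exceeded that of WT by 2.79 on the log2 scale for Fgf5 (adjusted p = 3.69e-09), 1.14 for Tcf15 (adjusted p = 0.00351) and 0.69 for Sema6a (adjusted p = 9.85e-07). In fullKO it exceeded that of WT by 0.97 for Fgf5 (adjusted p = 0.0173) and 1.42 for Sema6a (adjusted p = 1.48e-14). Both sets of differences share the WT libraries, and the fullKO difference of Fgf5 is the one of the 5 that left-out libraries ended.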

How the results depend on the processing

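Of 1085 values of the 7 genes in tested comparisons recomputed under alternatives, 1035 kept their direction and their side of the threshold, 20 lost the call, 16 gained it and 14 that were not called changed sign. Of the lost and gained calls 7 came from settings other than a left-out library, and all 7 are given beside their results except that of the replicate block. With the replicate block the change of Pou3f1 in fullKO minus WT passed (-0.63, adjusted p = 0.0359), and it changed no other call of the 7 genes. When 1 library was left out, the values that changed sign ranged as follows on the log2 scale. Against WT, Fgf5 in fullKO at day 2 ranged from -0.011 to 0.46, and at day 4 Vrtn ranged from -2.74 to 1.80 in fullKO and -0.41 to 0.96 in alphaKO. Between alphaKO and fullKO, Lef1 at day 2 ranged from -0.066 to 0.21, and at day 4 Otx2 ranged from -0.17 to 0.27 and Vrtn from -1.67 to 3.21. The change from day 2 to day 4 against that of WT ranged from -3.09 to 1.46 for Vrtn and -0.066 to 0.20 for Lef1 in fullKO, and from -0.15 to 0.10 for Pou3f1 in alphaKO. The number of the 7 genes that differed between alphaKO and fullKO at day 2 ranged from 3 to 5, with 3 without alphaKO replicate 1 of day 2, and that of changes from day 2 to day 4 differing between fullKO and WT from 1 to 3, with 1 without WT replicate 1 of day 4 or WT replicate 2 or 3 of day 2. The median difference of change from day 0 ranged from 2.23 to 2.53 in alphaKO and 2.41 to 2.82 in fullKO to day 2, and from 2.21 to 2.50 in fullKO to day 4. The median share kept in WT at day 2 ranged from 17.0% to 18.8%. The cause of these changes was not tested. Depth limits Vrtn at day 4 (2 to 6 counts per group) and Otx2 in WT at day 4 (3 counts).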
